A study of Mus musculus with 9 samples.

Results

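The genes described here are the subunits of the hypoxia-inducible factors (HIF) and 7 of their targets outside glycolysis, as measured in mouse liver macrophages after partial hepatectomy (PHx), an operation in which part of the liver is removed. The rule named the members by gene symbol and used no measured value: the subunit genes Hif1a, Epas1 and Arnt, and the target genes Vegfa, Adm, Bnip3, Egln3, Ndrg1, Ankrd37 and Pfkfb3. All 10 were found among the 56691 genes of the deposited table, and all 10 passed the filter on low counts, as did 20204 genes in all. Livers of young adult male C57BL/6 mice were digested with collagenase at 0, 24 or 48 h after PHx, and cells positive for F4/80 and CD11b, surface proteins of macrophages, were sorted. RNA of the sorted cells was sequenced in 3 libraries per time, 9 in all. The labels name no genotype or treatment other than the time, and the sources used here do not say whether the 0 h mice were operated on. Nor do they state if each library was made from another mouse. The p-values therefore speak of the spread among these 9 libraries alone, and that spread may be technical.

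HIF is a pair of proteins, an alpha subunit that is made all the time and destroyed while oxygen is at hand, and a stable beta subunit. With oxygen present, prolyl hydroxylases mark the alpha subunit, the von Hippel-Lindau ubiquitin ligase binds it, and it is degraded. When oxygen is short it lasts, joins ARNT and binds DNA at hypoxia response elements. In macrophages, transcription of Hif1a is also driven by inflammatory signals through NF-kappaB. In liver, Epas1, which encodes HIF-2 alpha, is known as a gene of endothelium that is also expressed in other cells. Because control of the alpha subunits acts largely on the protein, their mRNA is not a measure of HIF activity.

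Levels are given in CPM, counts of a gene relative to the TMM-scaled total of its library, as mean ± SD over 3 libraries where a mean is given. Differences are log2 fold changes of the first-named time over the second, from edgeR's quasi-likelihood test in 1 fit over all 9 libraries. A gene was called where its p-value, adjusted by Benjamini-Hochberg over all 20204 genes, was under 0.05. Totals per library were 53297943 to 67951168 counts. The 48 h libraries differed from the earlier ones in several ways. The mitochondrial genome gave 7.06% to 17.9% of their counts. In the 24 h libraries it gave 2.37% to 3.72%, and in the 0 h libraries 3.01% to 4.53%. At 48 h, summed levels of 11 endothelial markers, 8 B cell markers and 7 T and NK cell markers lay above those in every earlier library, while those of 8 macrophage markers lay below. Macrophage markers were nevertheless present at every time, with summed levels of 64550 to 82990 CPM at 0 h, 37870 to 83590 CPM at 24 h and 10240 to 24110 CPM at 48 h. Most of this sum was 1 of the 8 genes, Lyz2, at 61920 to 79000 CPM at 0 h, 31890 to 77920 CPM at 24 h and 9566 to 22330 CPM at 48 h. In a bulk sample, fewer cells of a type and less RNA per cell cannot be told apart.

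Hypoxia response elements hold a short core, ACGTG or GCGTG, and RefSeq promoter windows (build GRCm38.p6, 250 bases before to 50 after a gene's start) were searched for it on both strands. Windows matched 8 of the 10 members, all but Epas1 and Ndrg1. At least 1 core match lay in a window of all 8, as in 62.7% of the tested genes with a window. Counted by window, 9 of the 10 windows of members held a match, against 43.8% of all windows. The window without a match was that of Vegfa at chr17:46032328-46032627, and the 2 matches of Vegfa lay in its other window, at chr17:46025114-46025413. Vegfa is on the minus strand, so this other window lies downstream of the one without a match. Vegfa is counted among the members with matches by that window alone. At least 2 matches lay in a window of 6 of the 8 members, against 34.7% of the tested genes with a window. The core holds the bases CG, and G and C made up 54.7% to 71.7% of the windows of members, against 53.8% over all windows. The part of base content in these shares was not tested. The palindrome CACGTG holds the core on both strands and was counted as 2 overlapping matches. The windows of Ankrd37, Bnip3, Egln3 and Adm are shown up to the start because they cover courses seen among the targets. The level was highest at 24 h and lowest at 48 h for Ankrd37 and Egln3, highest at 24 h with 48 h and 0 h overlapping for Bnip3, and highest on average at 48 h for Adm. Core matches are in capitals, on either strand, and each sequence runs 5′ to 3′ on the strand of its gene.
Ankrd37: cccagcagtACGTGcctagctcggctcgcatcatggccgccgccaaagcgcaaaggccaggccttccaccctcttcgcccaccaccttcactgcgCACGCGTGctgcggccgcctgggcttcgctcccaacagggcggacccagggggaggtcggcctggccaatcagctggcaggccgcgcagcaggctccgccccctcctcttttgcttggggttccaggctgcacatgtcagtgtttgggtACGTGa
Bnip3: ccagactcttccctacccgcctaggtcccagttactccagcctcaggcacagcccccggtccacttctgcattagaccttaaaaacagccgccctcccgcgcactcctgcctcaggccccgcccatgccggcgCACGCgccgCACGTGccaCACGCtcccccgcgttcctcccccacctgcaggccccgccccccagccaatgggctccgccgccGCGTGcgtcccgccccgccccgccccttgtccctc
Egln3: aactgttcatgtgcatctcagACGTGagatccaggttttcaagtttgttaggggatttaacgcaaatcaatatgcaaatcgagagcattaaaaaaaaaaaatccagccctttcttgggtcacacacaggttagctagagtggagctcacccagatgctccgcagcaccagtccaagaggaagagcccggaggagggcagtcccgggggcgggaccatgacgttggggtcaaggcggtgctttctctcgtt
Adm: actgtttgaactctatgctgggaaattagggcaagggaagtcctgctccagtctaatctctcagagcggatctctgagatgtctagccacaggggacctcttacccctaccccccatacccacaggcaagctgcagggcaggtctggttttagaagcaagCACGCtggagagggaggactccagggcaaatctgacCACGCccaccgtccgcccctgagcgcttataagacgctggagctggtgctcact
The Ankrd37 sequence is the minus strand of chr8:45999851-46000100, with 4 matches that begin 241, 155, 152 and 6 bases before the start. The Bnip3 sequence (minus strand of chr7:138909507-138909756) holds 5, and 2 of them are the palindrome, beginning 108 and 107 bases before the start. In the Egln3 sequence, the minus strand of chr12:54203875-54204124, 1 match begins 229 bases before the start. The Adm sequence, from the plus strand of chr7:110627407-110627656, holds 2 matches, which begin 90 and 54 bases before the start and have the core on the other strand. A match says only that the letters are present.

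The alpha subunit genes had opposite courses at 48 h, while the beta subunit gene Arnt did not pass the test in any comparison. At 48 h Hif1a fell and Epas1 rose, against both 0 h and 24 h. Hif1a (ENSMUSG00000021109), which encodes the broadly expressed HIF-1 alpha, was at 88.2, 72.2 and 92.3 CPM in the 0 h libraries, at 131, 159 and 143 CPM in the 24 h libraries, and at 24.6, 25.9 and 24.9 CPM in the 48 h libraries. The 3 times did not overlap, the 24 h libraries being highest and the 48 h libraries lowest. At 48 h Hif1a averaged 25.1 ± 0.663 CPM, against 84.2 ± 10.7 CPM at 0 h (SD, n = 3 each), a fall of 3.35-fold with a log2 fold change of -1.75 (standard error 0.17, edgeR adjusted p = 7.03e-05). Against the 145 ± 14.0 CPM at 24 h (SD, n = 3) the fall at 48 h was 5.76-fold, with a log2 fold change of -2.53 (edgeR adjusted p = 2.16e-05). At 24 h the log2 fold change of Hif1a against 0 h was 0.78, with a 95% interval of 0.41 to 1.15, and did not pass the test (edgeR adjusted p = 0.152). DESeq2 called this difference, with a log2 fold change of 0.80 (DESeq2 adjusted p = 0.000547).

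**Figure D1:**
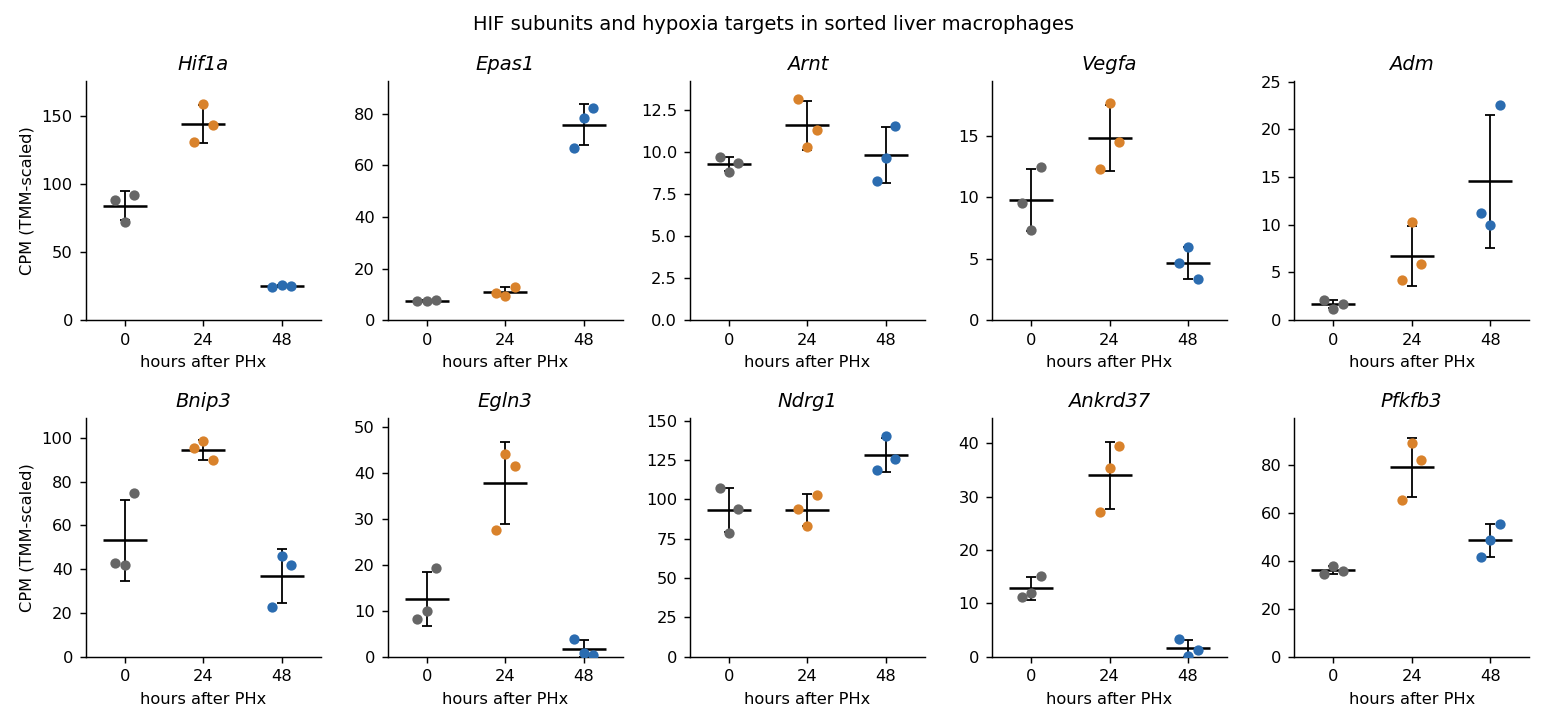
Levels of the 10 members in CPM (vertical axes, each from 0) against hours after PHx, with 1 dot per library, a bar for the mean of the 3 libraries of a time and error bars for the SD. Hif1a, Egln3 and Ankrd37 were highest at 24 h and lowest at 48 h in every library, whereas each 48 h library of Epas1 (66.9 to 82.1 CPM) lay above all earlier ones.

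Epas1 (ENSMUSG00000024140) was at 7.36, 7.45 and 7.97 CPM at 0 h, at 10.6, 9.41 and 13.0 CPM at 24 h, and at 66.9, 78.2 and 82.1 CPM at 48 h. Its 48 h libraries lay far above the rest, and its 24 h libraries lay just above those of 0 h. At 48 h Epas1 was 9.97-fold higher than at 0 h, with a log2 fold change of 3.32 (standard error 0.20, edgeR adjusted p = 6.59e-06). Against 24 h it was 6.89-fold higher at 48 h, a log2 fold change of 2.78 (edgeR adjusted p = 2.16e-05). The difference of 24 h from 0 h was 0.53 on the log2 scale and did not pass (95% interval 0.13 to 0.93, edgeR adjusted p = 0.460). Markers of endothelium moved in the same libraries as Epas1. All 11 of 11 endothelial markers rose at 48 h against both other times, and their summed level was 189 to 207 CPM at 0 h, 323 to 548 CPM at 24 h and 4170 to 4968 CPM at 48 h. The median log2 fold change of the 11 markers was 4.13 for 48 h against 0 h and 2.95 for 48 h against 24 h, and none of them was at 0 throughout a time. The part of these markers in the rise of Epas1 was not tested. B cell markers, whose sum was 12.9 to 33.0 CPM at 0 h, 16.3 to 36.3 CPM at 24 h and 347 to 800 CPM at 48 h, moved the same way.

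**Figure D2:**
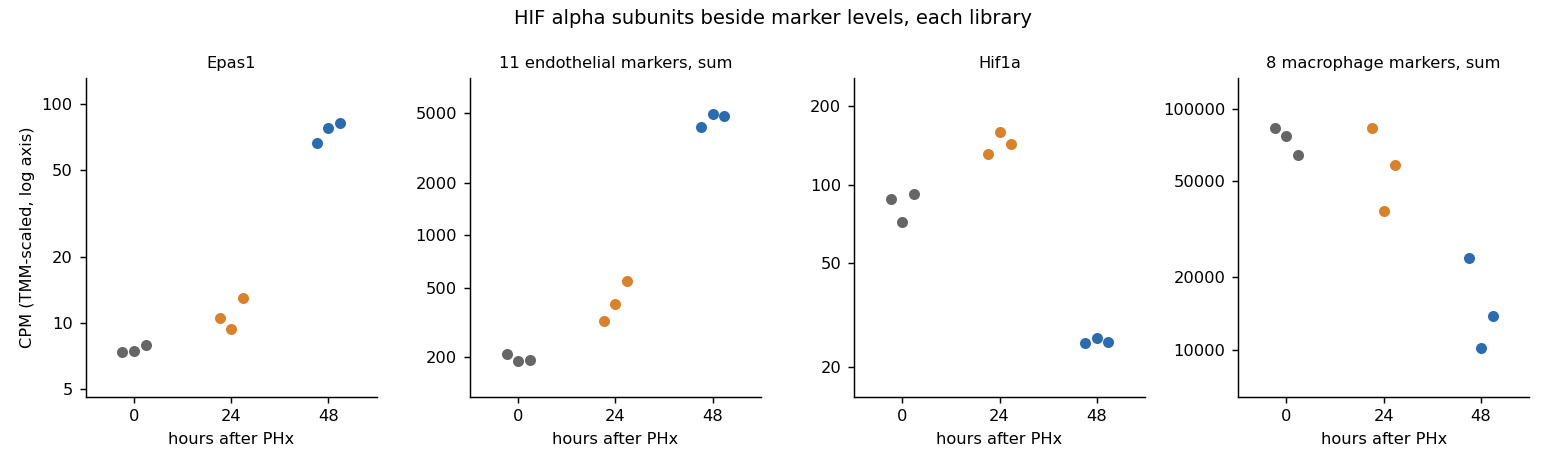
CPM on log axes in each library against hours after PHx, for Epas1, the sum of 11 endothelial markers, Hif1a and the sum of 8 macrophage markers, with 1 dot per library. Most of the macrophage sum is Lyz2. Epas1 and the endothelial sum are highest in the 48 h libraries, where Hif1a and the macrophage sum are lowest.

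Markers of macrophages, the sorted cells, moved in both directions in the 48 h libraries in which Hif1a fell. Of 8 macrophage markers, 5 fell and 1 rose at 48 h against 0 h, with a median log2 fold change of -1.55. The gene of the sorting marker F4/80, Adgre1, had a log2 fold change of -0.13 in that comparison (edgeR adjusted p = 0.857), and Itgam, the gene of CD11b, fell by 1.62 on the log2 scale (edgeR adjusted p = 0.00613). Adgre1 and Itgam are named for the gate, and were picked after the values were seen. Of 7 markers of Kupffer cells, the resident macrophages of liver, 4 rose and 0 fell at 48 h against 0 h (median 2.19). Their summed level was 246.5 to 933.5 CPM at 0 h, 1451 to 1810 CPM at 24 h and 594 to 4313 CPM at 48 h, so that the 48 h libraries overlapped those of both other times. The 4 rises became 0 without 0 h replicate 1 or 2, 1 (with 1 fall) without 48 h replicate 1, and 6 without 48 h replicate 2. Neutrophil markers, 9 in all, summed to 5074 to 12740 CPM at 0 h, 8620 to 15240 CPM at 24 h and 1625 to 2871 CPM at 48 h, but at 48 h against 0 h 2 of the 9 rose and 2 fell (median -0.48, and 4 fell without 48 h replicate 2). Those that rose were Camp, with a mean of 57.0 CPM at 48 h and 1.75 CPM at 0 h, and Ngp, and those that fell were Mmp8 and S100a8, with a mean of 1042 CPM at 48 h and 6449 CPM at 0 h for S100a8. These 4 were picked after their values were seen. Immediate-early and heat shock genes, which respond to handling of cells as well as to activation, fell in 8 of 10 cases at 48 h against 0 h (median -1.90). Whether any of these took part in the fall of Hif1a was not tested.

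Arnt (ENSMUSG00000015522) was at 9.70, 8.82 and 9.33 CPM at 0 h, at 13.2, 10.3 and 11.3 CPM at 24 h, and at 8.25, 9.64 and 11.5 CPM at 48 h. The 48 h libraries overlapped those of both other times, and all 24 h libraries lay above those of 0 h. Its log2 fold change was 0.08 for 48 h against 0 h (95% interval -0.41 to 0.57, edgeR adjusted p = 0.858). For 48 h against 24 h it was -0.24 (95% interval -0.73 to 0.25), and for 24 h against 0 h it was 0.32 (95% interval -0.17 to 0.81).

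To set the subunits side by side, CPM were divided by the length of the exons of each gene in kilobases. Per kilobase, Hif1a was at 12.2 to 15.7 CPM at 0 h, 22.3 to 27.0 CPM at 24 h and 4.18 to 4.39 CPM at 48 h. The level of Epas1 per kilobase was 1.32 to 1.43 CPM at 0 h, 1.68 to 2.32 CPM at 24 h and 12.0 to 14.7 CPM at 48 h. Thus Hif1a was the higher alpha subunit transcript in all 6 libraries of 0 and 24 h and Epas1 in all 3 libraries of 48 h. Hif1a exceeded Epas1 per kilobase by 9.18- to 11.4-fold at 0 h and by 10.5- to 16.1-fold at 24 h. At 48 h it was Epas1 that exceeded Hif1a, by 2.86- to 3.48-fold. Arnt per kilobase stayed between 1.03 and 1.64 CPM over the 9 libraries. Below Hif1a, the levels of Epas1 and Arnt per kilobase were close at 0 h, at 1.32 to 1.43 CPM and 1.10 to 1.21 CPM, and at 24 h, at 1.68 to 2.32 CPM and 1.28 to 1.64 CPM.

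Among the targets that encode secreted proteins, Adm rose and Vegfa fell at 48 h against 0 h. Adm (ENSMUSG00000030790) encodes adrenomedullin, a peptide that widens vessels and keeps endothelium tight. It was at 2.10, 1.20 and 1.71 CPM at 0 h, at 4.17, 10.3 and 5.84 CPM at 24 h, and at 11.2, 9.93 and 22.6 CPM at 48 h. All libraries after PHx lay above those of 0 h, and replicate 2 of 24 h overlapped the 48 h libraries. At 48 h Adm was 8.71-fold higher than at 0 h, a log2 fold change of 3.12 (standard error 0.46, edgeR adjusted p = 0.000882). Its log2 fold change at 24 h against 0 h was 2.02, with a 95% interval of 1.05 to 2.99, and missed the threshold in edgeR (adjusted p = 0.163) but passed it in DESeq2 (adjusted p = 0.00136). For 48 h against 24 h the log2 fold change was 1.11 (edgeR adjusted p = 0.0931), and without replicate 2 of 24 h it was 1.57 and passed (edgeR adjusted p = 0.0482). Adm is also expressed by endothelium, whose 11 markers rose in the same 48 h libraries, and their part in the rise of Adm was not tested.

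Vegfa (ENSMUSG00000023951), which encodes the main growth factor of vessels, was at 9.56, 7.34 and 12.5 CPM at 0 h, at 12.3, 17.7 and 14.5 CPM at 24 h, and at 4.66, 5.94 and 3.37 CPM at 48 h. The 48 h libraries were the lowest, and those of 24 h and 0 h overlapped. At 48 h Vegfa fell 3.19-fold against 24 h, with a log2 fold change of -1.67 (edgeR adjusted p = 0.00313). Its fall at 48 h against 0 h was 2.10-fold, with a log2 fold change of -1.07 (95% interval -1.72 to -0.42, edgeR adjusted p = 0.0287). This second call was lost without 0 h replicate 1 or 3, 24 h replicate 3, or 48 h replicate 1 or 3 (adjusted p between 0.0550 and 0.118 from edgeR), where the log2 fold change lay between -1.07 and -0.84. For 24 h against 0 h the log2 fold change of Vegfa was 0.60 (95% interval -0.04 to 1.25, edgeR adjusted p = 0.803).

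Receptors of these ligands rose at 48 h. Of 7 receptor genes of VEGFA and adrenomedullin, 6 rose and 0 fell at 48 h against 0 h, with a median log2 fold change of 3.32, and the same counts were found against 24 h (median 2.54). Over all genes tested the median was -0.04 and 0.05 in these comparisons, and 9.86% and 10.2% rose. Kdr, the main signalling receptor of VEGFA on endothelium, averaged 405 ± 81.9 CPM at 48 h, against 15.4 ± 0.987 CPM at 0 h (SD, n = 3 each), a log2 fold change of 4.71. Ramp2, a subunit of the adrenomedullin receptor, averaged 372 ± 42.5 CPM at 48 h and 16.5 ± 1.81 CPM at 0 h (SD, n = 3 each), a log2 fold change of 4.50. Flt1, another VEGFA receptor, rose by 3.32 and the coreceptor Nrp1 by 2.91 on the same scale. Adjusted p-values of these 4 genes at 48 h against 0 h were between 6.59e-06 and 9.76e-06 from edgeR. The receptors are known as endothelial genes, and they rose in the libraries in which all 11 endothelial markers rose, whose part here was not tested. At 24 h against 0 h, 1 of the 7 rose, Ramp2, with a log2 fold change of 1.71 (edgeR adjusted p = 0.0175). None of the 7 was called there without any 1 of the 0 h libraries, or without 24 h replicate 2 or 3.

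Egln3 and Ankrd37 had the largest falls of the 10 members at 48 h. Egln3 (ENSMUSG00000035105) encodes PHD3, a prolyl hydroxylase that marks HIF alpha and is itself induced by HIF. It was at 8.32, 10.1 and 19.3 CPM at 0 h, at 27.6, 44.3 and 41.6 CPM at 24 h, and at 3.91, 0.875 and 0.486 CPM at 48 h. Its levels did not overlap between times. At 48 h Egln3 was 7.06-fold lower than at 0 h, with a log2 fold change of -2.82 (standard error 0.66, edgeR adjusted p = 0.0140). Against 24 h it was 21.2-fold lower, with a log2 fold change of -4.41 (95% interval -5.98 to -2.84, edgeR adjusted p = 0.00165). Its log2 fold change at 24 h against 0 h was 1.59 (95% interval 0.20 to 2.98, edgeR adjusted p = 0.601).

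Ankrd37 (ENSMUSG00000050914), an ankyrin-repeat gene known as a direct HIF-1 target, followed the same course. It was at 11.2, 12.0 and 15.2 CPM at 0 h, at 27.1, 35.4 and 39.4 CPM at 24 h, and at 3.34, 0.156 and 1.26 CPM at 48 h. Again the times did not overlap, and replicate 1 of 48 h was the highest of its time for both genes. The lowest value of Ankrd37 rested on 10 counts, in replicate 2 of 48 h. At 48 h Ankrd37 was 7.96-fold lower than at 0 h, with a log2 fold change of -2.99 (edgeR adjusted p = 0.0148). Without replicate 3 of 48 h this call was lost, at a log2 fold change of -2.78 (edgeR adjusted p = 0.0561). Against 24 h it was 21.1-fold lower at 48 h, with a log2 fold change of -4.40 (95% interval -6.08 to -2.73, edgeR adjusted p = 0.00248). The difference at 24 h against 0 h was 1.41 on the log2 scale (95% interval -0.07 to 2.88, edgeR adjusted p = 0.791). It passed the threshold in edgeR when only the libraries of 0 h and 24 h were fitted.

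Bnip3, Pfkfb3 and Ndrg1, which act in mitochondrial turnover, glycolytic control and stress responses, had smaller log2 fold changes. Bnip3 (ENSMUSG00000078566) encodes a mitochondrial protein that starts mitophagy. It was at 43.0, 42.0 and 74.6 CPM at 0 h, at 95.4, 98.8 and 89.8 CPM at 24 h, and at 22.9, 46.0 and 42.0 CPM at 48 h. The 24 h libraries were the highest and lay close together, and those of 48 h and 0 h overlapped. At 48 h Bnip3 fell 2.56-fold against 24 h, with a log2 fold change of -1.36 (edgeR adjusted p = 0.00929). Against 0 h its log2 fold change was -0.53 at 48 h (edgeR adjusted p = 0.257) and 0.83 at 24 h (edgeR adjusted p = 0.506), and neither passed.

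Pfkfb3 (ENSMUSG00000026773) encodes the enzyme that makes fructose 2,6-bisphosphate, an activator of phosphofructokinase, and so controls glycolysis without being one of its steps. It was at 34.7, 38.0 and 36.0 CPM at 0 h, at 65.4, 89.4 and 82.3 CPM at 24 h, and at 41.6, 48.8 and 55.4 CPM at 48 h. No time overlapped another, with 24 h highest and 0 h lowest. At 24 h Pfkfb3 had a log2 fold change of 1.13 against 0 h (95% interval 0.72 to 1.53), the smallest p-value of the members in this comparison, and it missed the threshold (edgeR adjusted p = 0.0722). It passed by DESeq2 (adjusted p = 2.90e-06). At 48 h Pfkfb3 fell 1.63-fold against 24 h, with a log2 fold change of -0.70 (edgeR adjusted p = 0.0218). This call was lost without 24 h replicate 2 or 3 or 48 h replicate 2 (log2 fold changes of -0.57, -0.63 and -0.66, edgeR adjusted p = 0.100, 0.0901 and 0.0589). Against 0 h the log2 fold change at 48 h was 0.42 (95% interval 0.02 to 0.83, edgeR adjusted p = 0.139).

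Ndrg1 (ENSMUSG00000005125), a stress-response gene induced by hypoxia in many cells, was at 107, 78.9 and 93.7 CPM at 0 h, at 94.0, 83.0 and 103 CPM at 24 h, and at 119, 140 and 126 CPM at 48 h. Libraries of 0 h and 24 h overlapped, and those of 48 h lay above both. Its log2 fold change was 0.46 at 48 h against 0 h (95% interval 0.07 to 0.85, adjusted p = 0.101 in edgeR and 0.0329 in DESeq2). Against 24 h it was also 0.46 (adjusted p = 0.0980 in edgeR and 0.0427 in DESeq2). The 95% interval of the log2 fold change at 24 h against 0 h ran from -0.39 to 0.39.

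Over the 10 members, 0 passed the test at 24 h against 0 h, where 0.0792% of all genes tested were called. At an unadjusted p under 0.05, 6 were higher and 0 lower, set against 3.89% of all genes tested that were higher. All 24 h libraries exceeded all 0 h libraries for 8 of the 10, against 8.37% of all genes tested. The same held for 7 of 7 Kupffer cell markers (median log2 fold change 1.44), 11 of 11 endothelial markers (median 1.07), 6 of 9 neutrophil markers (median 1.24) and 1 of 8 macrophage markers (median 0.03). In these lists edgeR called 0, but DESeq2 called 9 endothelial, 4 neutrophil, 1 Kupffer cell and 1 macrophage marker higher and 0 lower. Before adjustment, 11 endothelial, 4 Kupffer cell, 4 neutrophil and 1 macrophage marker were higher in edgeR at p under 0.05, and 1 neutrophil marker was lower. The part of these markers in the members' values was not tested. The median log2 fold change of the 10 was 0.81, against -0.03 over all genes tested. DESeq2 called 3 of the 10 higher (Hif1a, Adm and Pfkfb3), against 1.54% of the genes it tested, and limma-voom called 0. The edgeR fit shared its estimate of spread over all 9 libraries, those of 48 h included. Fitted to only the 6 libraries of 0 h and 24 h, 2 of the 7 target members and 0 of the 3 subunit genes were called. Over all genes, 37 rose and 32 fell in that fit, of 18833 tested. At 48 h against 0 h, 2 members rose (9.86% of all genes tested) and 4 fell (8.95%), so that 6 of 10 were called, against 18.8% of all genes tested. Without 48 h replicate 3 the 6 became 4. At 48 h against 24 h, 1 rose (10.2% of all genes tested) and 6 fell (9.60%), so that 7 of 10 were called, against 19.8%. These comparisons share libraries, those of 0 h, of 24 h and of 48 h each entering 2 of them, so their counts are not independent of each other.

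**Figure D3:**
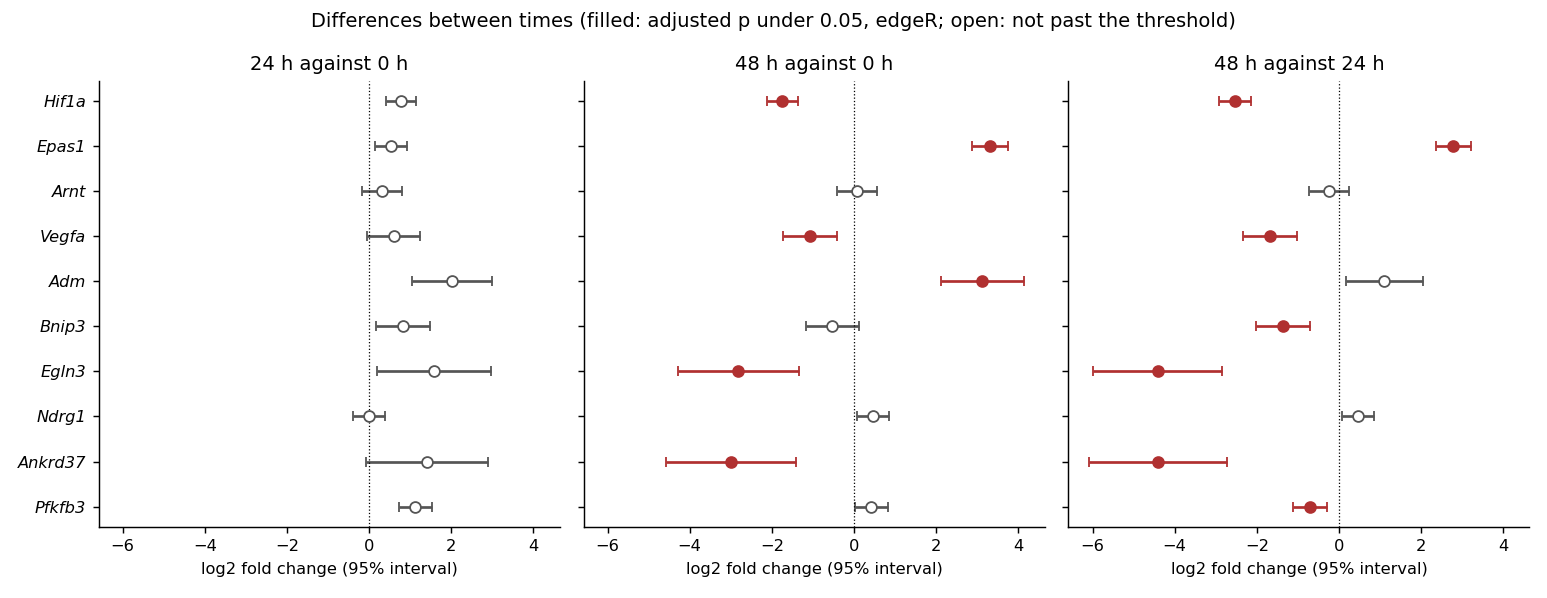
Log2 fold changes of the 10 members (horizontal axes) with their 95% intervals in the 3 comparisons, from edgeR, where filled points have an adjusted p under 0.05 and open points do not. At 24 h against 0 h no point is filled, and at 48 h Epas1 lies to the right of 0 and Hif1a to the left against both other times.

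The other genes of the pathway were taken from 4 lists of 74 genes, of which 73 were tested. At 24 h against 0 h, 2 of the 73 rose and 0 fell, at 48 h against 0 h 7 rose and 24 fell, and at 48 h against 24 h 7 rose and 31 fell. Over all genes tested, 0.0792% were called at 24 h against 0 h. At 48 h, 9.86% rose and 8.95% fell against 0 h, and 10.2% rose and 9.60% fell against 24 h. The 2 rises at 24 h became 0 without any 1 of the 0 h libraries or without 24 h replicate 2 or 3, 1 without 24 h replicate 1 or 48 h replicate 3, and 3 without 48 h replicate 2. Genes of oxygen sensing and turnover of HIF, 13 tested, gave 0 calls at 24 h against 0 h (median 0.13, 1 higher and 0 lower with an unadjusted p below 0.05, 0 calls by DESeq2). The most abundant of them, Rbx1 and Elob, parts of the ubiquitin ligase that takes up HIF alpha, had log2 fold changes of 0.13 and 0.15 in that comparison (edgeR adjusted p = 1 for both). At 48 h against 0 h, Elob fell by 0.98 on the log2 scale (edgeR adjusted p = 0.00304). Cited2, which competes with HIF for a coactivator, fell by 0.81 (edgeR adjusted p = 0.00963). No other gene of the list passed there, and its median was -0.40. Against 24 h, 5 of the 13 fell at 48 h and 0 rose (median -0.53), those with the smallest p-values being Cited2, Elob, Siah2 and Rbx1. These 5 falls became 2 or 3 whichever 1 of the 9 libraries was left out, and the 2 against 0 h became 1 without 0 h replicate 1 and 3 without 48 h replicate 1. The hydroxylase gene Egln1 and the ligase gene Vhl, both picked after their values were seen, did not pass in any comparison. Hif3a, the gene of another alpha subunit and picked in the same way, did not pass the filter, at no more than 0.30 CPM in any library.

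**Figure D4:**
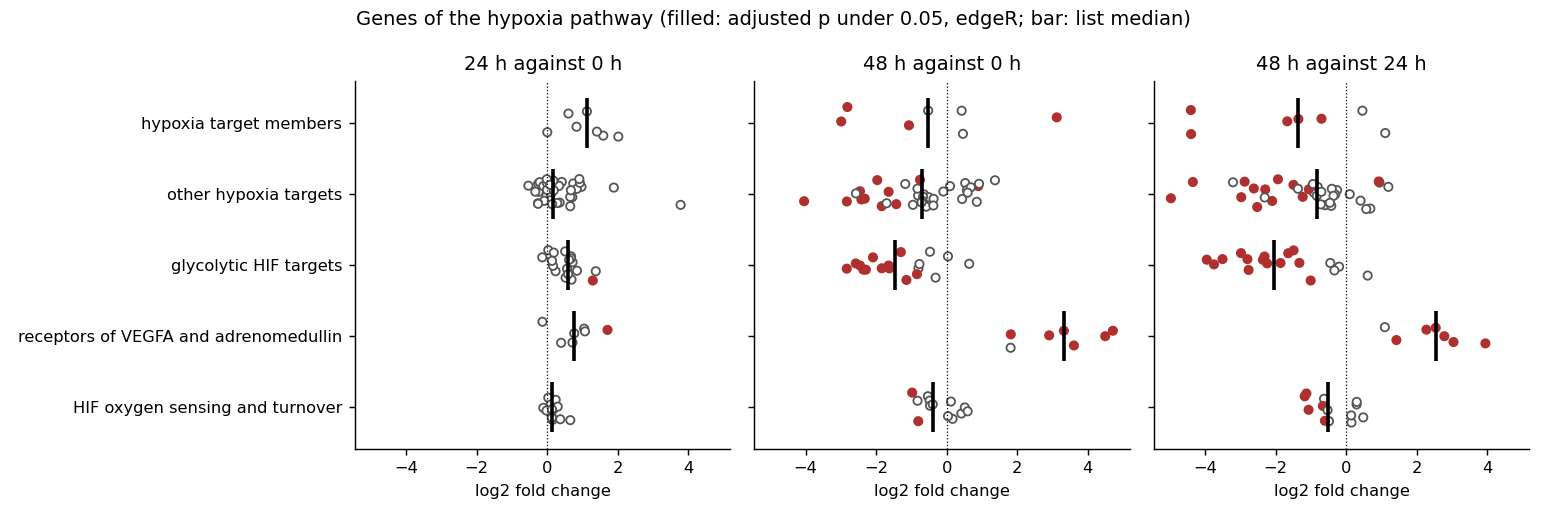
Log2 fold changes (horizontal axes) of the 7 target members and of the 4 pathway lists in the 3 comparisons, with 1 dot per gene, filled where the adjusted p from edgeR was under 0.05, and a bar at the list median. At 48 h the receptor genes lie to the right of 0 while most filled points of the glycolytic and other hypoxia targets lie to the left.

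Of 35 further hypoxia targets outside glycolysis, 0 passed at 24 h against 0 h (median 0.17). DESeq2 called 3 of them higher there, against 1.54% of the genes it tested, and limma-voom called 0. In that comparison 7 of the 35 were higher and none lower at p under 0.05 before adjustment. Over all genes tested, 3.89% were higher by that rule. The most abundant of the 35, Arg1 and the heme oxygenase gene Hmox1, had log2 fold changes of 1.89 and 0.10 (edgeR adjusted p = 0.169 and 1). At 48 h 10 of the 35 fell and 1 rose against 0 h (median -0.70), and 12 fell and 1 rose against 24 h (median -0.84). Over all genes tested, 8.95% fell and 9.86% rose against 0 h, and 9.60% fell and 10.2% rose against 24 h. Ddit4, an inhibitor of mTORC1, averaged 1.75 ± 0.167 CPM at 48 h and 12.5 ± 2.71 CPM at 0 h (SD, n = 3 each), a log2 fold change of -2.83 (edgeR adjusted p = 0.000108). Bhlhe40, a transcriptional repressor, was at 19.5 to 39.8 CPM at 48 h and at 127 to 167 CPM at 0 h, a log2 fold change of -2.33. Higd1a, a mitochondrial protein gene, fell by 1.43 and Rbpj, the DNA-binding factor of Notch signalling, by 1.97 on the log2 scale at 48 h against 0 h. Arg1, an arginase gene, fell by 4.35 at 48 h against 24 h (edgeR adjusted p = 0.000152). The libraries also held 8 hepatocyte markers, whose sum was 2005 to 4392 CPM at 24 h and 1099 to 2226 CPM at 48 h. Of these 8, 1 rose and 0 fell in that comparison, and their part in the fall of Arg1 was not tested. The gene that rose against 0 h was Plod1, a collagen lysyl hydroxylase, by 0.90 on the log2 scale, and that against 24 h was Zfp395, by 0.92, both picked after their values were seen. No gene of the list was called higher against 0 h without 0 h replicate 2 or 3, and none against 24 h without 24 h replicate 1 or 3.

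Most glycolytic HIF targets fell at 48 h, as Hif1a did. Of 18 such genes, 12 fell and 0 rose at 48 h against 0 h (median -1.46), and 14 fell and 0 rose against 24 h (median -2.05). Over all genes tested, 8.95% fell against 0 h and 9.60% against 24 h. In the same libraries, 5 of 8 macrophage markers (median -1.55) and 8 of 10 immediate-early and heat shock genes (median -1.90) fell against 0 h. Their part in the fall of the glycolytic targets was not tested. Slc2a1, the glucose transporter gene, was at 54.4, 73.6 and 82.1 CPM at 0 h, at 173, 170 and 173 CPM at 24 h, and at 11.6, 13.5 and 13.2 CPM at 48 h. Its times did not overlap, as with Hif1a, Egln3 and Ankrd37. At 48 h against 0 h Slc2a1 fell by 2.46 on the log2 scale (edgeR adjusted p = 1.99e-05), Eno1, an enolase gene, by 2.37, Pkm, the pyruvate kinase gene, by 2.29, and Slc16a3, a lactate exporter gene, by 2.58. At 24 h against 0 h, Slc2a1 was the 1 gene of the list that rose, by 1.29 (edgeR adjusted p = 0.0417). None was called there without any 1 of the 0 h or 24 h libraries, or without 48 h replicate 3, and 2 were called without 48 h replicate 2. The median of the 18 in that comparison was 0.58.

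For Hif1a, Epas1 and Vegfa, the 3 genes with the most similar profile were sought among 7339 or 7340 genes with a mean of at least 10 CPM, by the root-mean-square difference of centred log2 CPM over the 9 libraries. Closest to Hif1a were Tlr2, a receptor of bacterial lipoproteins, at 0.197 on the log2 scale, Higd1a at 0.204 and Itgb2, an integrin chain of leukocytes, at 0.218. Tlr2 averaged 139 CPM at 0 h, 218 CPM at 24 h and 43.6 CPM at 48 h. Closest to Epas1 were Zbtb46, a transcription factor gene of dendritic cells and endothelium, at 0.152, Emcn, which is 1 of the 11 endothelial markers, at 0.154, and Plxnc1, a semaphorin receptor gene, at 0.182. Emcn averaged 6.17 CPM at 0 h, 9.99 CPM at 24 h and 64.8 CPM at 48 h. Closest to Vegfa were Mefv, the pyrin gene, at 0.188, Vdr, the vitamin D receptor gene, at 0.207, and Gk, the glycerol kinase gene, at 0.256. These distances describe the 9 libraries, which share their times and scaling, and carry no test.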

How the data were processed

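RNA of F4/80+CD11b+ macrophages sorted from mouse liver 0, 24 and 48 h after PHx was sequenced, with 3 libraries for each time. The authors made the deposited table with a read counter, as estimated counts per Ensembl gene that were not scaled to depth. They are called estimated counts because 40.9% to 47.6% of the values from 4 to 40 in a library were multiples of 4, for which no source gives the origin. Counting error may therefore be larger than the totals (53297943 to 67951168 per library) alone would give, which was not tested. Error was taken from the spread between libraries. Tools named in the submitters' processing notes are featureCounts 1.5.0-p3, HISAT2 2.0.5 and CASAVA 1.8. The sources used here give no genome build, annotation or strand setting of the counting. Gene symbols matched 52073 of the 56691 gene IDs.

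Genes were filtered with filterByExpr (minimum count 10), the values entering the fit as the whole numbers deposited. Libraries were scaled by TMM and fitted by edgeR 4.0.16 under R 4.3.3 (glmQLFit, then glmQLFTest), with the 3 times as groups. The study's methods state no test for these libraries. Standard errors and 95% intervals were derived from the F statistic. Levels per kilobase used the exon lengths of a GENCODE annotation, which may not be that of the authors. Promoter sequences are from RefSeq (GRCm38.p6). No pair of libraries of a time agreed within sampling noise (chi-square per gene at least 146). The steps were tested on simulated data for 24 h against 0 h only, with the same spread in all libraries. That test cannot show how the steps do at the larger spread of the 48 h libraries. Members and gene lists were chosen with earlier results of these data known, so their calls are described, with no test of a list. Genes named from a list were up to 4 with the smallest p among those called in a comparison, or the 2 most abundant where none was called. Egln1, Vhl, Hif3a, Plod1, Zfp395 and the marker genes Adgre1, Itgam, Camp, Ngp, Mmp8 and S100a8 fall outside this rule and were picked after their values were seen. Alternatives tried were RLE scaling, no filter, a minimum of 10 counts in all libraries, limma-voom (limma 3.58.1), DESeq2 1.42.0, a replicate block, a fit to 6 libraries (those of the times in the comparison), and leaving out each library in turn. Counts divided by 4 and the omission of mitochondrial genes were added after the data were seen.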

Additional observations from a re-analysis of the deposited data

How the results depend on the processing

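At 24 h against 0 h, the 0 members called became 2 with no filter on low counts, 1 with at least 10 counts in every library, 3 with DESeq2 and 2 with only the 6 libraries of the times compared. They stayed at 0 with RLE scaling, limma-voom, counts divided by 4, mitochondrial genes left out and any 1 library left out. The genes were Adm (edgeR adjusted p = 0.0415) and Pfkfb3 (0.0270) with no filter, Pfkfb3 (0.0295) with the higher minimum, and Ankrd37 (0.0292) and Pfkfb3 (0.0312) with 6 libraries. The 2 pathway genes called there became 5 with no filter, 4 with at least 10 counts in every library, 10 with DESeq2 and 0 with the replicate block, and 0 to 3 with 1 library left out. Over all genes, 10 rose and 6 fell at 24 h, against 267 and 107 with DESeq2, 75 and 21 with no filter and 1 and 1 with the replicate block.

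At 48 h against 0 h, the 6 members called became 3 with only the 6 libraries, where Vegfa (edgeR adjusted p = 0.0826), Egln3 (0.0507) and Ankrd37 (0.0575) missed the threshold, and 4 to 6 with 1 library left out. Against 24 h, the 7 called were 6 to 7 with 1 library left out, and Pfkfb3 missed the threshold with no filter (0.0543) and with 6 libraries (0.0614). The calls of Hif1a and Epas1 at 48 h kept their direction and passed under every alternative run. The log2 fold change of Ndrg1 at 24 h against 0 h, near 0, turned to -0.01612 with at least 10 counts in every library and to -0.007053 with counts divided by 4, and ran from -0.10 to 0.12 with 1 library left out. That of Arnt at 48 h against 0 h ran from -0.008149 to 0.19 with 1 library left out. The causes were not tested.

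Deviations of same-numbered libraries from their group means had correlations of -0.015 to 0.07, so the numbers are not treated as pairs. With the replicate block 0, 5 and 7 members were called in the 3 comparisons, and Vegfa at 48 h against 0 h missed the threshold (edgeR adjusted p = 0.0573). Among the 10 members, Ankrd37 and Egln3 had the widest intervals at 48 h against 0 h, with means of 1.59 and 1.76 CPM at 48 h. Their intervals were also the widest at 24 h against 0 h, where 24 h means were 34.0 and 37.8 CPM. The edgeR fit shared its estimate of spread over all 9 libraries. Within the 48 h libraries, Ankrd37 ran from 0.156 to 3.34 CPM and Egln3 from 0.486 to 3.91 CPM. When the 48 h libraries were left out of the fit, Ankrd37 passed the threshold in edgeR and Egln3 did not. The part of the 48 h spread in the width of these intervals was not tested.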
